A study of Mus musculus with 8 samples.

Results

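The 9 genes described here are Ifih1, Ddx58, Mavs, Irf3, Irf7, Irf9, Stat2, Isg15 and Ifit1, the RNA sensing and interferon response genes of AML12 cells. They were taken by symbol from tables of 55401 genes. Of these 9, 7 had at least 1 TPM in at least 4 dishes and entered the test across genes, and Irf7 and Ifit1 lay under that limit. TPM is a measure of transcript abundance that corrects for transcript length and adds up to the same total in each dish. The data were RNA-seq values of 4 control dishes and 4 dishes exposed for 1 h to Opti-ELF-WMF, a pulsed weak magnetic field with a peak of 100 mG and pulses of 4 ms that stepped from 1 to 8 Hz. AML12 is an established mouse hepatocyte line, made from a mouse carrying a human TGF-alpha transgene, and all 8 dishes held these cells with no further genetic change, in medium with dexamethasone. Both groups came from 1 batch of cells, and the controls stood in another incubator of the same model with the stimulator off, so the field and the incubator cannot be told apart. The labels number the dishes but do not say whether they were separate cultures, so p-values measure the spread between these dishes, which may be technical.

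Ifih1 encodes MDA5 and Ddx58 encodes RIG-I, helicases in the cytosol that bind double-stranded RNA and signal through MAVS, an adaptor on the outer mitochondrial membrane. MAVS leads to phosphorylation of the transcription factors IRF3 and IRF7, which switch on interferon genes. Secreted interferon then acts through its receptor on the complex ISGF3, which holds STAT2 and IRF9, and ISGF3 drives genes such as Isg15, a ubiquitin-like protein, and Ifit1, which binds viral RNA that lacks a host cap. Double-stranded RNA and DNA that leave mitochondria are known triggers of this pathway, and RNA that escapes from mitochondria is sensed mainly by MDA5. Several members are themselves targets of ISGF3, which binds the interferon-stimulated response element in their promoters.

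Matches to the core letters of that element were found in the promoters of 5 members, which are printed here because the members fall into those with and those without a match. The motif GAAANNGAAA, the core of the response element, was searched on both strands in the 300 bases around each RefSeq start site on GRCm38.p6, from 250 before to 50 after it. A match was present in 5 of the 9 members (55.6%), against 1131 of 32851 promoter windows (3.44%) and 1079 of 27025 genes (3.99%). Such a share is not particular to the members. Among the pathway lists described below, it was 11 of 19 interferon ligands (57.9%) and 20 of 42 interferon-stimulated effectors (47.6%). RNA sensors had 3 of 8 (37.5%), and the other lists had 0 to 15.4%. Each stretch is written 5′ to 3′ on the strand of the gene, with the match in capitals, and a match on the opposite strand reads TTTCNNTTTC. The Ifih1 stretch is chr2:62646206-62646233 on the minus strand, the Ddx58 stretch chr4:40239804-40239833 on the minus strand, the Stat2 stretch chr10:128270248-128270347 on the plus strand, the Isg15 stretch chr4:156200869-156200968 on the minus strand, and the Ifit1 stretch chr19:34640739-34640838 on the plus strand.
Ifih1: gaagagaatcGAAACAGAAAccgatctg
Ddx58: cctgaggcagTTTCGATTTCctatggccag
Stat2: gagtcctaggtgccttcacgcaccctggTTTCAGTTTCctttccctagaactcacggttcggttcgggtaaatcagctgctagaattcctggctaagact
Isg15: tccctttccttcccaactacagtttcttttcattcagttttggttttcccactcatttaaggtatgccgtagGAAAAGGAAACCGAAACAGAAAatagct
Ifit1: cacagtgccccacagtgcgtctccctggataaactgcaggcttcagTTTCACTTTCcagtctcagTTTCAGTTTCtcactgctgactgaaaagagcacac

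Isg15 held 3 matches that overlap one another, and their first bases lay at -78, -72 and -66 from the start site. Ifit1 held 2 separate matches, at -104 and -85. The Stat2 match lay farthest out, at -222, whereas those of Ddx58 and Ifih1 lay just inside the transcript, at +3 and +33. The windows of Mavs, Irf3, Irf7 and Irf9, the last with 2 start sites, held no match, which says only that these letters are not in these windows. A match is a description, not a site or a cause.

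**Figure D1:**
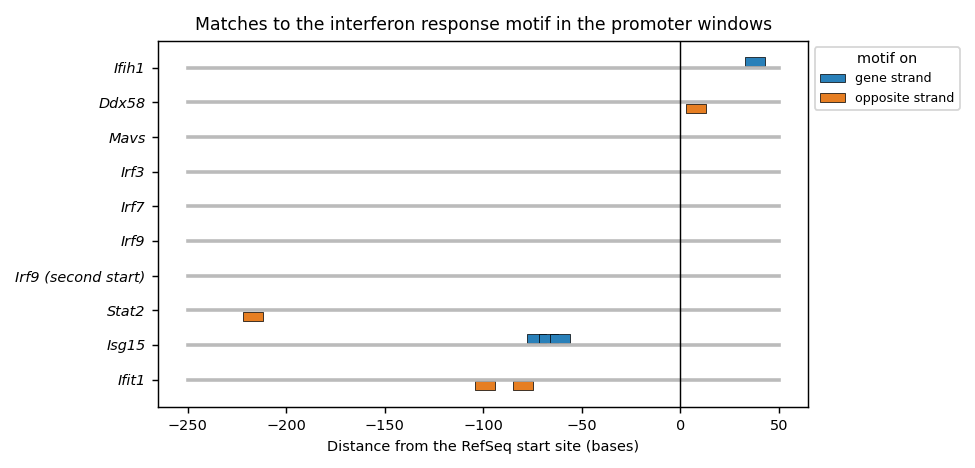
Matches to the response element core in the promoter windows of the 9 members (x axis, distance in bases from the RefSeq start site; 1 line per window, with boxes above the line for the strand of the gene and below it for the opposite strand). Matches are in Ifih1, Ddx58, Stat2, Isg15 (3) and Ifit1 (2), from -222 to +33, and the lines of Mavs, Irf3, Irf7 and Irf9 are empty.

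TPM keeps no sequencing depth, so the depth behind each value is unknown and no detection limit is given. Between 19386 and 20114 genes were above 0 in a dish. Across all genes tested, limma called 0 of 12122 at an adjusted p under 0.05 (0.00%), with 1894 at an unadjusted p under 0.05. Genes of the mitochondrial genome took 8.69 to 9.42% of TPM in control dishes and 5.99 to 7.69% in exposed dishes, ranges that do not overlap, and the median log2 difference of all genes was 0.03. Because the sum is fixed, less mitochondrial RNA raises the TPM of other genes, so Stat2, Ddx58 and Irf9 are also given below on a scale without it. The 10 hepatocyte markers summed to 5627 to 5885 TPM in control and 5971 to 6194 TPM in exposed dishes, mostly from Krt8 and Krt18, keratins of simple epithelia that were 105.0% and 106.5% of their control means. Alb, the hepatocyte product albumin, was 55.1 ± 2.67 TPM in control and 49.7 ± 3.14 TPM in exposed dishes, with overlap (log2 difference -0.15). Apoa1, Afp and Ttr were 83.0%, 89.1% and 97.2% of their control means. Apob, Serpina1a, Hnf4a and Trf went the other way, at 103.7%, 105%, 105.7% and 103.7%, each with overlap. The part of these markers in the results was not tested. The leukocyte marker Adgre1, the plasmacytoid dendritic cell marker Siglech, the endothelial marker Cdh5 and the stellate cell marker Lrat were listed at 0 in every dish, but other markers of these types were above 0. The summed levels of the 8 leukocyte markers were 1.9 to 2.83 TPM in control and 1.96 to 2.6 TPM in exposed dishes. Among them Cd68 passed the filter, at 1.45 to 2.21 TPM in control and 1.05 to 1.64 TPM in exposed dishes. The 4 endothelial markers summed to 0.01 to 0.05 TPM in control and 0.03 to 0.08 TPM in exposed dishes. The 6 stellate cell and fibroblast markers summed to 0.6 to 1.6 TPM and 0.44 to 1.38 TPM. The 4 plasmacytoid dendritic cell markers summed to 108.4 to 116.1 TPM in control and 107.7 to 119.0 TPM in exposed dishes, from Bst2, an interferon-stimulated gene at 95.1 to 104.6 TPM, and Tcf4 at 11.4 to 14.6 TPM. In bulk RNA, fewer cells that express a gene and less RNA per cell cannot be told apart.

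The pathway was present in unstimulated AML12 cells at very unequal levels. By mean TPM over the 8 dishes, Irf3 stood first with 94.1 ± 3.89 (SD, n = 8), followed by Stat2 with 28.2, Mavs with 26.8, Irf9 with 11.2, Ddx58 with 9.40, Ifih1 with 4.11, Isg15 with 2.20, Irf7 with 0.881 and Ifit1 with 0.261. Irf3, which waits in the cytosol for activation, was thus far above Irf7, the factor that interferon itself induces. The ranges over the 8 dishes overlapped between the neighbours Stat2 and Mavs, Irf9 and Ddx58, and Irf7 and Ifit1, and all other neighbours were separate. Irf7 was nevertheless above Ifit1 within each of the 8 dishes. The order was the same for all 9 genes whichever dish was left out.

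**Figure D2:**
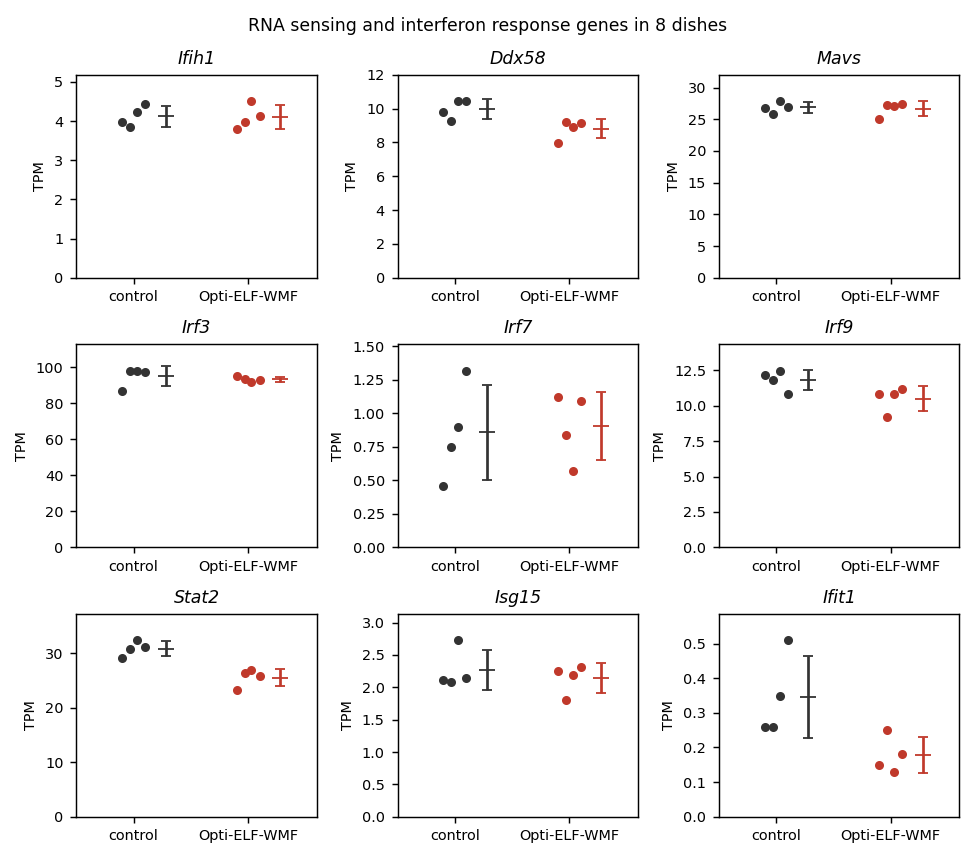
TPM of the 9 members in each dish (y axes, TPM from 0; points, single dishes in the order of their numbers; bars beside them, mean ± SD of 4 control, in black, and 4 exposed dishes, in red). The exposed points lie under all control points for Ddx58, Stat2 and Ifit1, and the groups overlap for the other 6 members.

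Against the controls, the 3 genes whose exposed dishes all lay below all control dishes were Stat2, Ddx58 and Ifit1, and Irf9 was lower with overlap, whereas Ifih1, Mavs, Irf3, Irf7 and Isg15 lay close to their control levels. None of the 9 passed the adjusted test. Among the 7 members tested with the filter, 3 were lower at an unadjusted p under 0.05, against 3.65% of all genes, and 0 were higher, against 12.0% of all genes. Every exposed dish was below every control dish for 2 of these 7, against 1.86% of all genes, and without a filter this held for 3 of the 9, against 1.44%. All 7 had a negative log2 difference, against 36.3% of all genes, and their median was -0.05. A majority of negative differences was not particular to the members. In the lists described below, which include the members, the share was 73.3% for interferon receptor and JAK-STAT genes. It was 69.2% for interferon-stimulated effectors, 64.3% for NF-kB and inflammatory outputs, and 25 to 41.2% in the other lists with tested genes. The signs of Ifih1, Mavs and Isg15 depended on single dishes. The median of all genes was 0.03 here, and -0.001, -0.005 and -0.002 with median-of-ratios scaling, upper-quartile scaling and TPM rescaled without mitochondrial genes. The share of all genes with a negative difference was not computed on those scales.

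Among the sensors, Ddx58 was lower in the exposed dishes and Ifih1 was not distinguishable. Ddx58, on the minus strand of chromosome 4 at 40203773 to 40239828 (GRCm38), had 9.81, 9.25, 10.43 and 10.45 TPM in control dishes 1 to 4 and 7.98, 9.22, 8.94 and 9.15 TPM in exposed dishes 1 to 4. The groups did not overlap, but the gap between them was only that between 9.22 and 9.25 TPM. The exposed mean of 8.82 ± 0.574 TPM was 88.4% of the control mean of 9.99 ± 0.573 TPM (SD, n = 4). On the log2(TPM + 1) scale, which understates differences of low genes, this was -0.16 with an SE of 0.06 (95% interval -0.30 to -0.02, limma adjusted p = 0.247). The two-sided exact permutation p was 0.0286, the smallest that 4 against 4 dishes can give. Every gene whose groups do not overlap gets this p, so it only restates the separation. Such groups were found for 1.86% of all genes tested in the lower and 8.01% in the higher direction. Leaving out 1 dish at a time moved the difference between -0.19 and -0.12, and 5 of these 8 fits kept an unadjusted p under 0.05.

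Ifih1, on the minus strand of chromosome 2 at 62595798 to 62646255, had 3.97, 3.84, 4.22 and 4.44 TPM in the control dishes and 3.80, 3.97, 4.51 and 4.14 TPM in the exposed dishes. The groups overlapped over nearly their whole range, and the exposed mean was 99.7% of the control mean. The log2 difference was -0.004 with a 95% interval of -0.16 to 0.16 (limma adjusted p = 0.988), so a difference of that size in either direction was not excluded by these dishes. Both sensors carry the motif near their start sites, and their TPM ratio, chosen after the values were seen and given with no test, was 2.35 to 2.47 in control and 1.98 to 2.32 in exposed dishes. Those ranges do not overlap.

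The adaptor showed no detectable difference. Mavs, on the plus strand of chromosome 2 at 131234063 to 131248025, had 26.76, 25.88, 27.87 and 26.97 TPM in control and 24.98, 27.22, 27.04 and 27.46 TPM in exposed dishes. Exposed dish 1 was the lowest of all and the other exposed dishes lay inside the control range. The log2 difference was -0.01 (95% interval -0.10 to 0.08, limma adjusted p = 0.931).

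Of the interferon regulatory factors downstream of MAVS, Irf3 and Irf7 overlapped between groups. Irf3, on the plus strand of chromosome 7 at 44997648 to 45002848, had 86.67, 98.12, 97.65 and 97.53 TPM in control and 95.18, 93.17, 91.50 and 92.88 TPM in exposed dishes. Control dish 1 was the lowest of all 8, and the exposed dishes lay under the other 3 controls. The log2 difference was -0.03 (95% interval -0.12 to 0.07, limma adjusted p = 0.820). Without control dish 1, the only control dish under the exposed dishes, it was -0.07 with an unadjusted limma p of 0.0326. The groups then do not overlap. In that fit 513 of 12122 genes were lower at an unadjusted p under 0.05. It was the only 1 of the 8 fits leaving out 1 dish with such a p for Irf3, and the highest was 0.835. Irf3 shares 88 exonic bases with Bcl2l12 on the other strand, and the authors' library kit keeps strand.

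Irf7, the amplifier of interferon production, is on the minus strand of chromosome 7 at 141262706 to 141266481 and shares 45 exonic bases with Phrf1 on the other strand. Its values were 0.46, 0.75, 0.90 and 1.32 TPM in control and 1.12, 0.84, 0.57 and 1.09 TPM in exposed dishes. They overlapped, with a spread within each group far larger than the difference of the means. In the fit without a filter the log2 difference was 0.05 (95% interval -0.32 to 0.41, limma adjusted p = 0.927), so at this level only large differences could have been seen.

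Stat2 had the largest difference and the smallest p-value of the 7 members tested with the filter. Stat2, the subunit of ISGF3 with the main activation domain, is on the plus strand of chromosome 10 at 128270559 to 128292849. It had 29.08, 30.80, 32.42 and 31.16 TPM in control and 23.21, 26.33, 26.86 and 25.81 TPM in exposed dishes. All exposed dishes lay below all control dishes, with 26.86 as the highest exposed and 29.08 TPM as the lowest control value. The exposed mean of 25.6 ± 1.62 TPM was 82.8% of the control mean of 30.9 ± 1.38 TPM (SD, n = 4). The log2 difference was -0.26 with an SE of 0.05 (95% interval -0.38 to -0.15), the unadjusted limma p was 0.000536 and the adjusted p was 0.122, so Stat2 did not pass the test over all genes. The two-sided exact permutation p was 0.0286, as for every gene whose groups do not overlap. In all 8 fits that left out 1 dish the unadjusted p stayed under 0.05 and the difference lay between -0.29 and -0.22. On the scale without mitochondrial genes the difference was -0.29, and those of Ddx58 and Irf9 were both -0.19.

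Irf9, the DNA-binding subunit of ISGF3, was lower in the exposed dishes with overlap. It is on the plus strand of chromosome 14 at 55603571 to 55610030 and shares 123 exonic bases with Rnf31 on the same strand, whose reads the counting could divide between the genes. Its values were 12.16, 11.81, 12.49 and 10.82 TPM in control and 10.84, 9.19, 10.86 and 11.16 TPM in exposed dishes. All 4 exposed dishes were under the control median, but control dish 4 lay inside the exposed range. The exposed mean was 88.9% of the control mean, and the log2 difference was -0.16 with an SE of 0.07 (95% interval -0.31 to -0.003, limma adjusted p = 0.309). The two-sided exact permutation p was 0.114, and only 2 of the 8 fits that left out 1 dish kept an unadjusted p under 0.05.

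Of the effectors, Ifit1 was lower and Isg15 was not distinguishable. Isg15, on the minus strand of chromosome 4 at 156199424 to 156200818, had 2.11, 2.08, 2.73 and 2.14 TPM in control and 2.26, 1.81, 2.19 and 2.31 TPM in exposed dishes. The groups overlapped, and control dish 3 alone was high. The log2 difference was -0.05 (95% interval -0.27 to 0.16, limma adjusted p = 0.840), and without control dish 3 it was 0.01.

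Ifit1, on the plus strand of chromosome 19 at 34640871 to 34650009, was the lowest member of all. It had 0.26, 0.26, 0.35 and 0.51 TPM in control and 0.15, 0.25, 0.13 and 0.18 TPM in exposed dishes. Exposed dish 2 lay 0.01 TPM, the last decimal of the tables, below the lowest control dishes, so the separation is as narrow as the tables can show. The exposed mean of 0.178 ± 0.0525 TPM was 51.4% of the control mean of 0.345 ± 0.118 TPM (SD, n = 4). In the fit without a filter the log2 difference was -0.19 (95% interval -0.34 to -0.04, limma adjusted p = 0.361), with an unadjusted limma p of 0.0194 in a fit where 3.27% of all genes were lower at under 0.05. With a pseudocount of 0.1 the log2 difference of Ifit1 was -0.66 and with 5 it was -0.05, so its size on this scale depends on the pseudocount. The two-sided exact permutation p was 0.0286, as for every gene whose groups do not overlap.

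**Figure D3:**
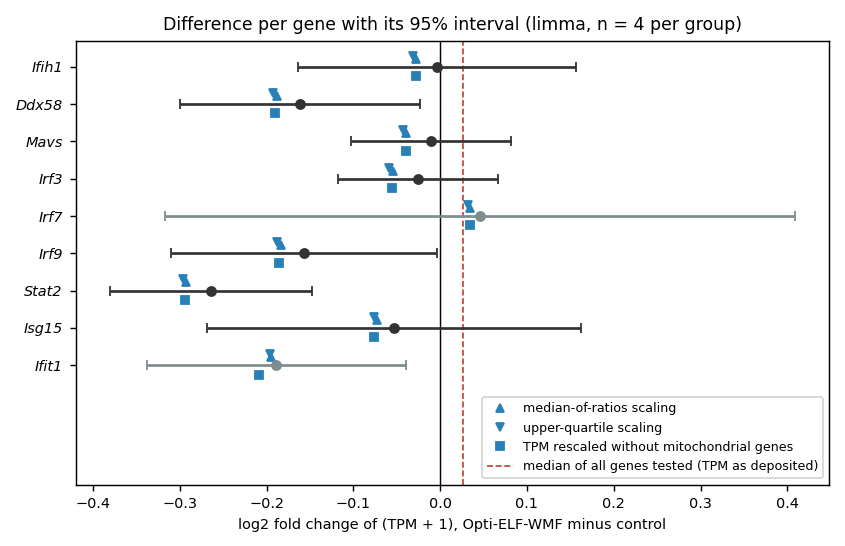
Log2 difference of each member, exposed minus control, on the log2(TPM + 1) scale (round points, limma estimates; bars, 95% intervals; grey, Irf7 and Ifit1 from the fit without a filter; blue symbols, the estimates with 3 other scalings; dashed line, median of all genes tested, 0.03). The intervals of Ddx58, Irf9, Stat2 and Ifit1 lie under 0 before adjustment, at -0.16, -0.16, -0.26 and -0.19, the last of which depends on the pseudocount.

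Of the 5 members with a match, Ddx58, Stat2 and Ifit1 had every exposed dish below every control dish, and Ifih1 and Isg15 overlapped. This held for 0 of the 4 members without a match, of which Irf9 was lower with overlap, and for 1.44% of all genes without a filter. On 9 genes this is a description with no test. The share of groups that do not overlap was not computed for all genes with and without the motif. By the unadjusted p under 0.05, 14 of 308 genes tested with the motif (4.55%) were lower. Of those with a promoter window and no match, 268 of 8751 (3.06%) were lower. The median log2 difference was 0.03 in both sets. Among the tested interferon-stimulated effectors listed below, 0 of 8 with the motif and 1 of 15 with no match were lower. Each of these sets had 1 higher.

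The wider pathway was described with 9 lists of 190 genes in all, which include the members. Of these, 130 passed the filter and 0 passed the adjusted limma test. The counts at an unadjusted p under 0.05 that follow stand against 3.65% of all genes lower and 12.0% higher, and those of groups that do not overlap against 1.86% lower and 8.01% higher. No interferon was measurable beyond traces. Of 20 interferon ligand genes, 15 were listed at 0 in every dish and none passed the filter. Ifnb1, the first interferon that IRF3 switches on, was listed at 0.14 TPM in exposed dish 2 and at 0 in the others. Ifna4 was above 0 in control dish 2 alone, at 0.13 TPM, and Ifne in exposed dish 4 alone, at 0.11 TPM. Ifna13 had 0.08 TPM in control dish 1 and 0.16 TPM in exposed dish 1, and Ifnk 0.08 TPM in control dish 4 and in exposed dish 3. Such traces were thus listed in both groups.

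Among 11 RNA sensor genes, 7 passed the filter, and Ddx58 was the only one at an unadjusted p under 0.05 in either direction. The median of the list was 0.02, close to that of all genes. Eif2ak2, which encodes the double-stranded RNA kinase PKR, was 21.9 ± 0.73 TPM in control and 24.0 ± 1.95 TPM in exposed dishes, a log2 difference of 0.12 (adjusted p = 0.364). Dhx58, the third helicase of the RIG-I family, was 0.797 TPM in control and 0.565 TPM in exposed dishes, with overlap.

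Among 18 genes of MAVS signalling, 17 passed the filter, 1 was lower and 1 was higher at an unadjusted p under 0.05, and the median was 0.01. With upper-quartile scaling 3 were lower and 0 higher, and with TPM rescaled without mitochondrial genes 1 was lower and 0 were higher. Ikbke, a kinase that phosphorylates IRF3, was 45.5 ± 3.13 TPM in control and 41.6 ± 2.16 TPM in exposed dishes (log2 difference -0.12, adjusted p = 0.305), and without control dish 3 the difference was -0.08. Traf5, an adaptor ubiquitin ligase, was 10.4 ± 1.83 TPM and 12.5 ± 0.611 TPM (log2 difference 0.25, adjusted p = 0.255). Ube2d3, a ubiquitin-conjugating enzyme, had the highest level of the list, with 435.9 TPM in control and 449.9 TPM in exposed dishes.

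In the DNA branch, where cGAS senses DNA and STING relays it, 12 of 14 genes passed the filter, 1 was lower and 2 were higher at an unadjusted p under 0.05, and with each of the other 3 scalings 1 was higher. Trex1, the exonuclease that degrades cytosolic DNA, was 13.8 ± 1.00 TPM in control and 16.7 ± 0.642 TPM in exposed dishes, with every exposed dish above every control dish (log2 difference 0.26, adjusted p = 0.122). Zdhhc1, of the palmitoyltransferase family and a partner of STING, was 6.88 ± 0.610 TPM and 5.69 ± 0.473 TPM, with no overlap in the lower direction (log2 difference -0.24, adjusted p = 0.192). Sting1 itself was low, with 1.68 TPM in control and 1.25 TPM in exposed dishes (log2 difference -0.25, adjusted p = 0.536), and the difference was -0.12 without exposed dish 1 and -0.14 without control dish 4.

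Among 16 genes that contain or release mitochondrial nucleic acids, all 16 passed the filter, 0 were lower and 4 were higher at an unadjusted p under 0.05, and the median was 0.06. Supv3l1, the helicase of the complex that degrades mitochondrial RNA, was 26.3 ± 0.318 TPM in control and 28.7 ± 1.10 TPM in exposed dishes (log2 difference 0.12, adjusted p = 0.165). Pnpt1, the nuclease of the same complex, was 35.2 TPM and 33.8 TPM (log2 difference -0.06, adjusted p = 0.517), with -0.08 to -0.09 under the other scalings and -0.03 without exposed dish 1. Vdac3, a channel of the outer membrane, was 201.2 ± 2.04 TPM and 214.4 ± 4.13 TPM (log2 difference 0.09, adjusted p = 0.131), and 0.06 with each of the other 3 scalings. With other scalings, 2 or 3 genes of this list were higher and 1 or 2 lower.

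Of 15 genes of the interferon receptor and JAK-STAT pathway, all 15 passed the filter, 2 were lower, the members Stat2 and Irf9, and 0 were higher at an unadjusted p under 0.05. The median was -0.03. The receptor chain Ifnar1 was 20.2 TPM in control and 20.6 TPM in exposed dishes, and the kinase Jak1 was 73.8 ± 1.93 TPM and 78.4 ± 6.63 TPM (log2 difference 0.08, adjusted p = 0.507). The difference of Jak1 was 0.05 with each of the other 3 scalings, 0.13 without exposed dish 1 and 0.03 without exposed dish 2. Both genes overlapped between groups.

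Of 50 interferon-stimulated effectors, 26 passed the filter, 1 was lower and 3 were higher at an unadjusted p under 0.05, shares close to those of all genes, and the median was -0.02. With the other scalings 1 or 2 were higher. Ifi35, an interferon-induced protein that pairs with NMI, was 25.2 ± 0.915 TPM in control and 23.4 ± 0.729 TPM in exposed dishes (log2 difference -0.11, adjusted p = 0.240). Ifi27, a small interferon-inducible membrane protein, was 0.938 ± 0.259 TPM and 1.53 ± 0.194 TPM, with no overlap in the higher direction (log2 difference 0.39, adjusted p = 0.176), and 0.68 or 0.14 with a pseudocount of 0.1 or 5. B2m, the light chain of MHC class I, was the most abundant, with 935.3 ± 21.2 TPM and 976.4 ± 14.9 TPM (log2 difference 0.06, adjusted p = 0.247).

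Of 26 negative regulators, 23 passed the filter, 2 were lower and 5 were higher at an unadjusted p under 0.05, but with each of the other 3 scalings only 1 was higher. Tnfaip3, the ubiquitin-editing enzyme A20, was 34.1 ± 0.931 TPM in control and 30.7 ± 1.86 TPM in exposed dishes, with no overlap (log2 difference -0.15, adjusted p = 0.173). Pcbp2, which promotes the degradation of MAVS, was 655.4 TPM and 696.6 TPM, also with no overlap (log2 difference 0.09, adjusted p = 0.140, and 0.05 to 0.06 with the other scalings). Of 20 NF-kB and inflammatory output genes, 14 passed the filter, 1 was lower and 2 were higher, and with other scalings 3 or 4 were lower and 0 or 1 higher. Vcam1, an adhesion molecule, was 62.9 ± 1.31 TPM and 59.1 ± 1.33 TPM (log2 difference -0.09, adjusted p = 0.194), and Rela, the p65 subunit of NF-kB, was 126.6 TPM and 135.0 TPM (log2 difference 0.09, adjusted p = 0.168, and 0.06 with the other scalings).

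**Figure D4:**
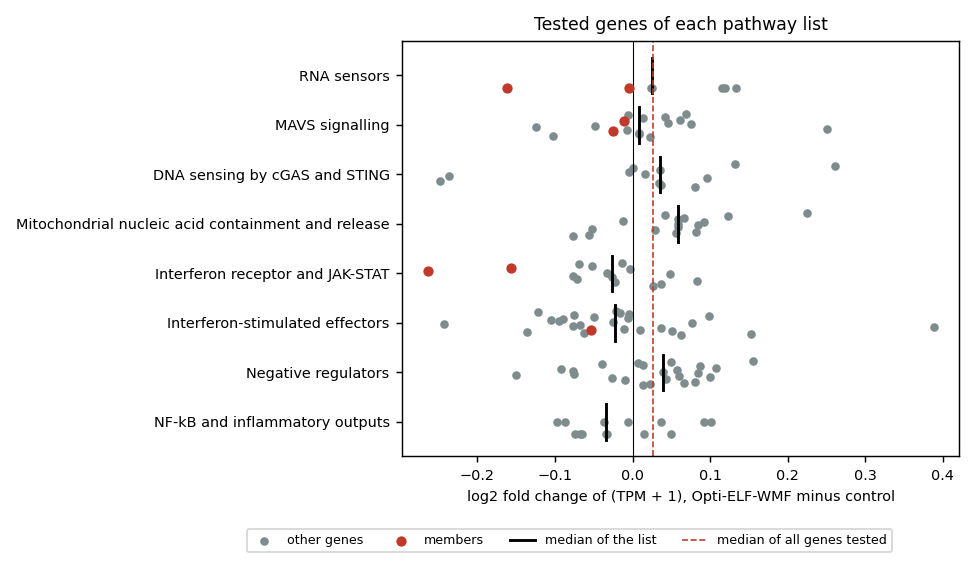
Log2 differences, exposed minus control, of the genes of each pathway list that passed the filter (red points, members; grey points, other genes, spread vertically for view; vertical marks, list medians; dashed line, median of all genes tested, 0.03). List medians lie between -0.03 and 0.06, and no gene passed the adjusted test.

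The genes whose pattern over the 8 dishes was most like that of the interferon response members were ranked by Pearson's r to the mean standardized log2(TPM + 1) of Irf9, Stat2 and Isg15. They were Clk4 (r = 0.98), Marveld1 (0.96), Mir155hg (0.95), Gm43980 (0.95) and the mitochondrial gene mt-Nd4 (0.95). These are the highest of all genes tested over only 8 dishes that share the difference between the groups, and they are a description. Clk4, a kinase of splicing factors, was 51.0 ± 3.86 TPM in control and 42.6 ± 2.34 TPM in exposed dishes, and mt-Nd4, a subunit of complex I, was 4590 ± 260.5 TPM and 3559 ± 396.9 TPM (n = 4 each), both with groups that do not overlap.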

How the data were processed

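RNA of 8 dishes of AML12 cells was sequenced by the authors as paired-end reads from stranded mRNA libraries. Each dish has its own table of 55401 genes, in which the deposited unit is TPM, as estimated by the authors. The submitters' processing notes name Trimmomatic 0.39, STAR 2.7.4a, RSEM 1.3.3 and mm10, and the annotation release is not given in the sources used here. TPM keeps no depth, so counting error is unknown and no count model was used.

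The filter kept the 12122 genes that reached a TPM of 1 in 4 or more dishes. Groups, taken from the labels, were compared with limma 3.58.1 (eBayes with trend) in R 4.3.3 on log2(TPM + 1) with Benjamini-Hochberg adjustment over all genes kept, and Irf7 and Ifit1 in the same fit of all 25413 genes above 0 in any dish. Single members also had a two-sided exact permutation test over the 70 assignments of the dishes. Its p was 0.943 for Ifih1, 0.771 for Mavs, 0.629 for Irf3, 0.8 for Irf7 and 0.6 for Isg15. Each member is given as mean ± SD of 4 dishes. The fit was checked on simulated data. Positions came from GENCODE M21 (GRCm38), which matched 55141 of the gene identifiers, and promoter sequences from RefSeq (GRCm38.p6).

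The members and lists were chosen with earlier results of these data known. Genes named are the members, from each list those with the lowest p-values up and down and those with the highest TPM, up to 3 interferon ligands above 0, and the 5 genes of most like pattern. Not every gene of that rule is printed. Dhx58 and Ifnar1 were added, as partners of members, after their values were seen. Alternatives covered scaling, the pseudocount (0.1 and 5), the filter, the trend, the replicate number as a block and leaving out each dish.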

Additional observations from a re-analysis of the deposited data

Results flagged for a closer look

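In 4 of the 18 groups of 4 dishes (9 members in each condition), 1 dish stood apart from the other 3 by more than Dixon's 95% limit, where chance gives 0.9 such groups. Mavs was lowest in exposed dish 1, at 24.98 TPM. Irf3 was lowest in control dish 1, at 86.67 TPM. Irf9 was lowest in exposed dish 2, at 9.19 TPM, and without that dish its log2 difference was -0.10. Isg15 was highest in control dish 3, at 2.73 TPM. The 4 dishes are different ones, and no reason for their values was tested.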

How the results depend on the processing

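No member passed the adjusted limma test under any alternative, and the adjusted p of Stat2 ranged from 0.109 to 0.278, of Ddx58 from 0.233 to 0.423, of Irf9 from 0.279 to 0.539 and of Ifit1 from 0.361 to 0.540. These 4 kept a negative difference throughout. Stat2 was -0.29, -0.30 and -0.29 with median-of-ratios scaling, upper-quartile scaling and TPM rescaled without mitochondrial genes. Genes called over all genes were 1 with median-of-ratios scaling, 1 with upper-quartile scaling, 2 with a pseudocount of 5, 1 with TPM of at least 1 in every sample and 1 with no trend, against 0. Genes lower at an unadjusted p under 0.05 numbered 755, 801 and 675 with the 3 scalings, against 443 of 12122 (3.65%). With TPM above 0 in any sample they numbered 832 of 25413, a share of 3.27%. Genes higher numbered 673, 588 and 693 with the 3 scalings, against 1451, so that the share of higher genes among these calls went from 76.6% to 47.1%, 42.3% and 50.7%. The median of all genes went from 0.03 to -0.001, -0.005 and -0.002. The cause was not tested.

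When 1 dish was left out at a time, 0 to 2 genes were called, 330 to 513 were lower and 1066 to 1625 were higher. Members lower at an unadjusted p under 0.05 numbered 1 to 3, with only Stat2 left without control dish 3 or exposed dish 1. Groups that do not overlap were found for 3 or 4 of the 9. Leaving out a dish cannot lower that count, so it does not measure stability. The sign depended on single dishes for Ifih1 (-0.0413 to 0.0259), Mavs (-0.0279 to 0.0195), Irf7 (-0.0630 to 0.160) and Isg15 (-0.0800 to 0.0121). The other members ranged from -0.19 to -0.12 (Ddx58), -0.07 to -0.01 (Irf3), -0.20 to -0.10 (Irf9), -0.29 to -0.22 (Stat2) and -0.22 to -0.13 (Ifit1).

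No pairing of the dishes by their replicate numbers was seen, and the labels do not state one. Deviations of same-numbered dishes correlated at -0.04 to 0.03. With the replicate block, 0 genes were called, 459 were lower and 1430 higher at an unadjusted p under 0.05, and Stat2 had an adjusted p of 0.214. The unknown depth limits what can be said of Irf7 and Ifit1, whose highest values were 1.32 and 0.51 TPM.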
